A study of Drosophila melanogaster with 2 samples.

Results

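The genes of the Drosophila melanogaster Polycomb group were examined for binding of the GFP-tagged CG4707 protein in whole embryos. The 10 genes were taken by name from the core of the group: Pc, ph-p, ph-d, Psc, Su(z)2, Sce, E(z), Su(z)12, pho and Scm. They are 10 of 18164 annotated genes on the 6 chromosome arms. Chromatin immunoprecipitation with sequencing (ChIP-seq) used a transgenic line with GFP at the C terminus of CG4707, and embryos of both sexes aged 0 to 14 h. The only group has 2 biological replicates, numbered 2 and 3 in the labels, with no second condition or genotype to compare. One text field of the labels names these libraries an input control, whereas the assay field names a transcription factor ChIP-seq and the antibody field names CG4707, and the lists were read as the latter. A region was assigned to a gene when its summit, the position of highest signal, lay in the gene body or within 2 kb of it. The signal of a region is the score of the authors' caller in an undescribed unit, so regions are compared by their rank within a list, rank 1 being the strongest. Peaks are the 3470 regions that passed the authors' reproducibility threshold, out of 30000 regions in the pooled list, and each replicate has a list of 30000 regions of its own.

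Polycomb group proteins keep developmental genes such as the Hox genes silent through cell divisions. They work in complexes on chromatin. Polycomb repressive complex PRC2 methylates histone H3 through the enzyme E(z), and PRC1 contains Pc, which binds the methylated histone, and Sce, which attaches ubiquitin to histone H2A. In flies the complexes are brought to Polycomb response elements by DNA-binding proteins, among them Pho, and the ph locus and the neighbouring Psc and Su(z)2 genes are themselves known targets of Polycomb proteins.

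Peaks were found at 6 of the 10 genes, which were Pc, ph-p, ph-d, Psc, Su(z)2 and E(z). Over all annotated genes, 22.9% had a peak summit in the body or within 2 kb. The share was 26.2% among 7431 protein-coding genes of 1599 to 14998 bp, the lengths of the shortest and longest member. Within that range lengths were not matched to those of the members, and the 6 genes with a peak were 3556 bp or longer. Of the PRC1 genes 5 of 6 had a peak, with Sce as the exception, and of the PRC2 genes 1 of 2, with Su(z)12 as the exception. The complexes differ in gene length, since those 5 PRC1 genes were 7560 bp or longer. Sce was 1599 bp, E(z) 3556 bp and Su(z)12 5221 bp long. Neither pho nor Scm had one. The 10 distinct peaks were unevenly spread, since 6 of them lay at the neighbouring genes ph-p and ph-d. A peak within 500 bp of an own transcription start site (TSS) was found at 3 genes, ph-p, Su(z)2 and E(z), against 10.5% of all genes. A summit inside the gene body was found at 4 genes, ph-p, Psc, Su(z)2 and E(z), against 8.56% of all genes, many of which are shorter. With weaker regions included, 8 genes had a pooled region, against 68.9% of all genes, a share near the background. No test was made on these counts, because the members are a short list taken by name.

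**Figure D1:**
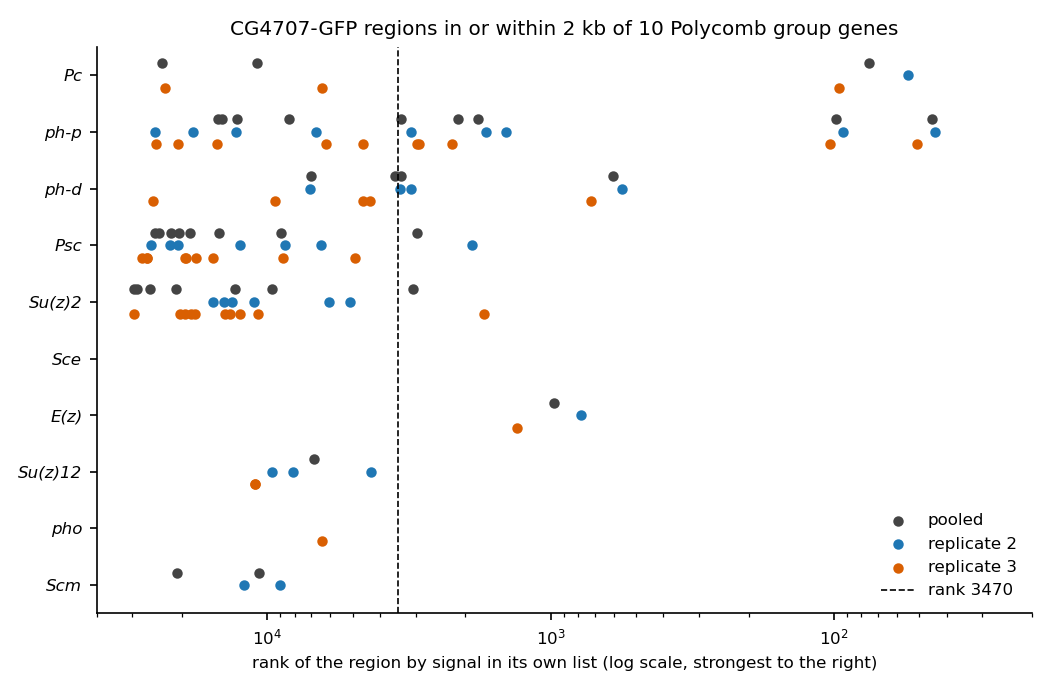
Rank by signal (horizontal axis, log scale, strongest to the right) of every region in or within 2 kb of each of the 10 genes, in the pooled list, replicate 2 and replicate 3. The dashed line marks rank 3470: regions of ph-p and Pc stand near rank 100 in all 3 lists, whereas Sce has no region.

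The strongest binding was at ph-p, which encodes a polyhomeotic subunit of PRC1 with a SAM domain. It had 5 peaks, a number reached by 0.688% of protein-coding genes of all lengths, and ph-p is 12162 bp long. Of the 5, the weakest lay 1913 bp beyond the 3' end and is also counted for ph-d. The highest of the 5 ranked 45 in the pooled list (signal 1320), 44 in replicate 2 (signal 628) and 51 in replicate 3 (signal 689). It lay on chromosome X from 2137203 to 2137531, in an intron between the alternative start sites of the gene, with its summit 1034 bp downstream of the most upstream TSS and 482 bp upstream of the next. The neighbouring peak ranked 98 in the pooled list (signal 912), 93 in replicate 2 (signal 450) and 103 in replicate 3 (signal 473). It lay from 2137712 to 2138083 in the 5' UTR, 470 bp downstream of the most upstream TSS. In each list both peaks stood among the top ranks, and their order was the same. Their summits were 564 bp apart, and this was 1 of 3 pairs of neighbours within 1000 bp among the 100 highest peaks of the genome. A peak among those 100 was in or within 2 kb of 1.15% of protein-coding genes, and of 2 of the 10 members, ph-p and Pc.

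The other peaks of ph-p were weaker. A summit 3054 bp downstream of the most upstream TSS ranked 2133 in the pooled list (1438 in replicate 2 and 2977 in replicate 3). Another at 3933 bp ranked 1799 (1692 in replicate 2 and 2228 in replicate 3). Both were intronic. A region 346 bp downstream of the most downstream start site ranked 2919 in replicate 3 but 8393 in the pooled list, and was no peak. Among the 5 peaks, the remaining one lay beyond the 3' end of ph-p and is also counted for ph-d.

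The second polyhomeotic gene, ph-d, lies 2923 bp downstream of ph-p on the same strand, as a tandem copy, and its protein also belongs to PRC1. Its peaks lay between the genes rather than in its body. The stronger, on chromosome X from 2123984 to 2124182, ranked 602 in the pooled list (signal 353), 558 in replicate 2 and 721 in replicate 3, with its summit 808 bp upstream of the nearest ph-d TSS and 2116 bp beyond the 3' end of ph-p. The weaker, from 2124107 to 2124486, overlapped it by 76 bp and had its summit 1011 bp upstream of that TSS and 1913 bp beyond the 3' end of ph-p. It ranked 3383 in the pooled list (signal 120), 3120 in replicate 2 and 4585 in replicate 3. This peak stood just inside the threshold, and a region whose summit lay 16 bp downstream of the most upstream ph-d TSS stood just outside it, at rank 3552 (signal 116), with ranks of 3396 and 4359 in the replicates. Past the 2 kb limit on the upstream side of ph-p, peaks of ranks 3303 and 1116 lay 2334 and 3536 bp away, both nearest to a TSS of D2hgdh.

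Because ph-d and ph-p are copies of each other, the regions were searched for words of 31 bases that recur on the 6 arms, a check added after the values were seen. In the highest ph-p region 3 of 299 words occurred elsewhere, and in each of the other 9 peaks of the members none did. How the authors' aligner treated reads with several matches is not given in the sources used here.

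**Figure D2:**
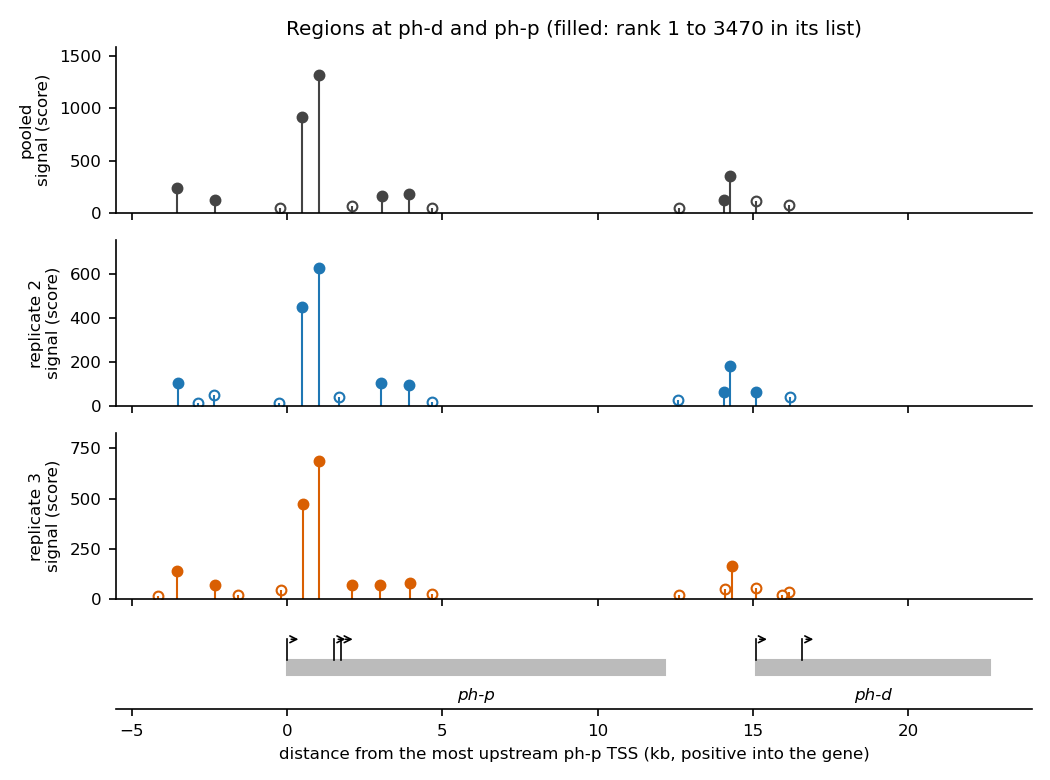
Signal (score, vertical axis, a scale of its own for each list) of regions at ph-p and ph-d against distance from the most upstream ph-p TSS in kb, positive into the gene, with filled points for ranks 1 to 3470, grey boxes for gene bodies and arrows for start sites. The 2 highest points in each list are those of pooled ranks 45 and 98, just downstream of the first ph-p start site.

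The sequences under the summits of the 3 strongest peaks at ph-p and ph-d are shown because they are the main peaks of the locus and because those in ph-p share a word. Each is 201 bases of the plus strand of the Release 6 genome, centred on the pooled summit. The windows are chrX:2137237-2137437 and chrX:2137801-2138001 in ph-p and chrX:2123994-2124194 upstream of ph-d. Capitals mark the longest word shared by both ph-p windows, and ACAGTG in the peak of rank 98.
ph-p, rank 45: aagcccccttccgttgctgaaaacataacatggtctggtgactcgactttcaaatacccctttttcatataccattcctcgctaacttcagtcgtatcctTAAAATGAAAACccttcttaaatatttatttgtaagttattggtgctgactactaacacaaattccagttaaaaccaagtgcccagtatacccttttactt
ph-p, rank 98: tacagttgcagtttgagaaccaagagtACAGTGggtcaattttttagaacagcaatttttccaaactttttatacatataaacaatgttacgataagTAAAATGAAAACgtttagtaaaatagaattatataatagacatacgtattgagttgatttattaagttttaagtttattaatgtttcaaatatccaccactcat
ph-d, rank 602: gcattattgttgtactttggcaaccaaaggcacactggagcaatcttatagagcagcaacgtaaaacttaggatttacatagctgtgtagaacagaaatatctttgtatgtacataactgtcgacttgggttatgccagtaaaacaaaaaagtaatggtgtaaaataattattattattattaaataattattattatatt

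The shared word, TAAAATGAAAAC, has 12 bases and starts at the summit of the peak of rank 45 and 3 bases before the summit of the peak of rank 98 on the plus strand. It occurred within 100 bp of the summit of 4 of 3470 peaks (0.115%) and of 10 of 30000 pooled regions (0.0333%), on either strand. Both counts include the 2 ph-p peaks from which the word was picked. The word was picked from these windows after their values were seen, so its place at the summits is a description and no test was made.

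The peak assigned to Pc, which encodes the chromodomain subunit of PRC1, was the second strongest of the set but lay away from the gene's own promoter. It ranked 75 in the pooled list (signal 1066), 55 in replicate 2 (signal 564) and 96 in replicate 3 (signal 484), on chromosome 3L from 21304420 to 21304734. Its summit was 1576 bp beyond the 3' end of Pc and 13458 bp from the only annotated Pc TSS. The summit lay in an intron of CG11309, 95 bp upstream of one of its start sites, and 135 bp upstream of a TSS of CG7632 on the opposite strand. At the Pc promoter itself regions were weak, with pooled ranks of 10896 at 735 bp and 23613 at 1509 bp upstream of the TSS. Replicate 3 had regions there at ranks 6403 and 22946, and replicate 2 had none.

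At E(z), which encodes the histone methyltransferase of PRC2, the single peak lay at the promoter. It ranked 972 in the pooled list (signal 263), 780 in replicate 2 (signal 150) and 1319 in replicate 3 (signal 114), on chromosome 3L from 10637960 to 10638105. The summit was 106 bp downstream of the most upstream of its start sites, in an intron, and 122 bp upstream of the divergent gene Cnep1r2. No list held another region of E(z). The peaks of Pc and E(z) were therefore the ones shared with promoters of other genes. With peaks at such shared promoters left out, a setting added after the values were seen, 4 of the 10 genes had a peak. The share of all genes was not counted under this setting, and the 22.9% given above keeps such peaks.

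The sequences under the Pc and E(z) summits are shown to set a strong and a moderate peak at shared promoters side by side. The windows are chr3L:21304462-21304662 and chr3L:10637924-10638124, on the plus strand of the Release 6 genome. Capitals mark GCCAT, the core of the Pho binding site, in the E(z) window.
Pc, rank 75: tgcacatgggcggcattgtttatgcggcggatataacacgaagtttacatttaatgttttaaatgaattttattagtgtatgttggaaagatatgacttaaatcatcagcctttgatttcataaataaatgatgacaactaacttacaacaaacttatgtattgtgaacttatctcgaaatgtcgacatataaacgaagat
E(z), rank 972: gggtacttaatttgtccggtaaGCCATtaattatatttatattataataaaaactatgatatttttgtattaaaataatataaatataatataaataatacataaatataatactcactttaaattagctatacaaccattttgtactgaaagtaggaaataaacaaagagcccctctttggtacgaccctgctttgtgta

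Both windows are poor in G and C, with 30.8% at Pc and 24.4% at E(z), against a median of 38.3% over the windows of all peaks. The E(z) window had a lower GC content than all but 1.07% of them. Over the set, 8 of 10 peaks were below that median and 2 above it, and the range was 24.4% to 50.2%.

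**Figure D3:**
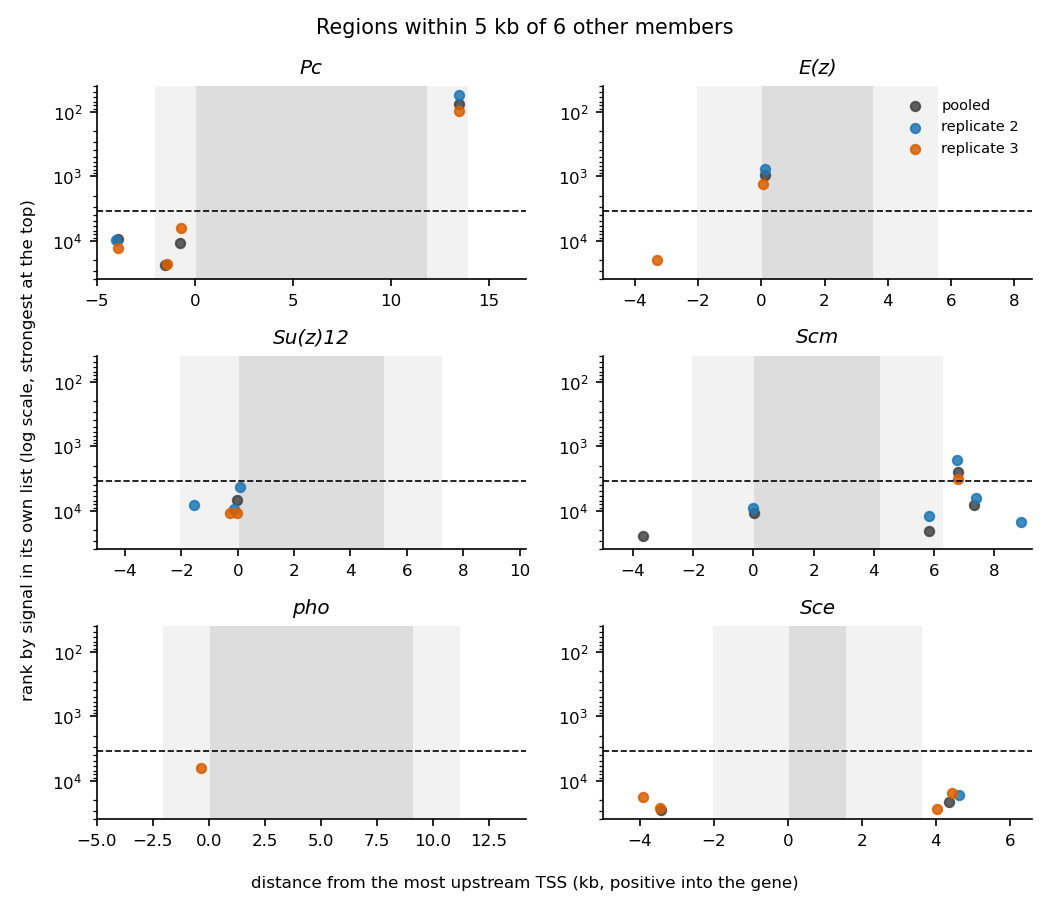
Rank by signal (vertical axis, log scale, strongest at the top) of pooled and replicate regions within 5 kb of Pc, E(z), Su(z)12, Scm, pho and Sce, against distance from the most upstream TSS in kb, positive into the gene. Dark shading is the gene body, light shading the 2 kb on each side and the dashed line rank 3470. In these panels points above the line within the shading occur at Pc and E(z). At Scm points of the pooled list and of both replicates lie above it just past the 2 kb limit.

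The paralogs Psc and Su(z)2, whose proteins carry RING-type zinc fingers, lie on chromosome 2R and point away from each other with 15506 bp between them. Each had 1 weak peak. That of Psc, from 12975390 to 12975769, was intronic with its summit 5078 bp downstream of the nearest TSS and ranked 2975 in the pooled list (signal 131). The replicates differed there, with rank 1900 (signal 88.3) in replicate 2 and 8832 (signal 35.6) in replicate 3. That of Su(z)2, from 12996367 to 12996746, lay in the 5' UTR with its summit 56 bp downstream of the TSS and ranked 3054 in the pooled list (signal 129). Here the order was the opposite, with rank 5113 (signal 47.9) in replicate 2 and 1721 (signal 95.7) in replicate 3.

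The weak peaks flanked a much stronger one that belongs to neither gene by the 2 kb rule. Between the genes, 4189 bp upstream of Psc and 11318 bp from Su(z)2, a peak from 12985030 to 12985365 ranked 123 in the pooled list (signal 817), 122 in replicate 2 and 119 in replicate 3. Its summit was 184 bp upstream of the TSS of a long non-coding RNA gene, lncRNA:CR44339. A further peak between them ranked 2489 and lay 5530 bp upstream of Su(z)2. Below the threshold, Psc had 7 more pooled regions and Su(z)2 had 6. The highest of these in Psc ranked 8972, 1036 bp downstream of a TSS, and the highest in Su(z)2 ranked 9661, 29 bp downstream of its second TSS.

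**Figure D4:**
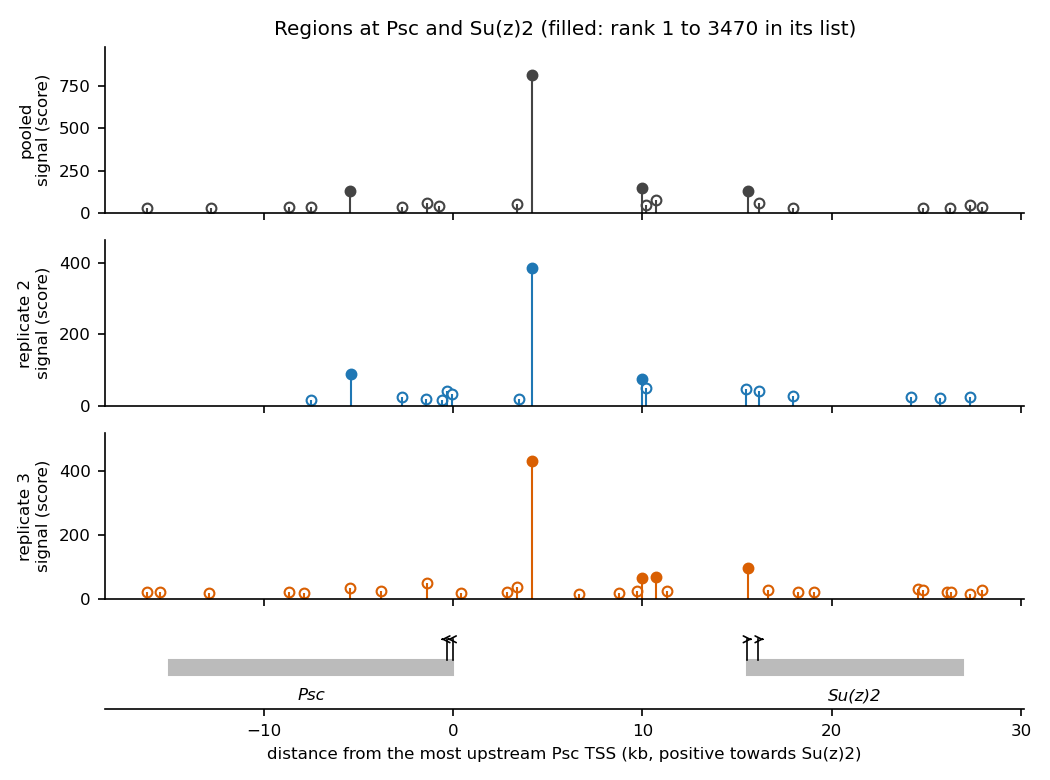
Signal (score, vertical axis, a scale of its own for each list) of regions at Psc and Su(z)2 against distance from the most upstream Psc TSS in kb, positive towards Su(z)2, with filled points for ranks 1 to 3470, grey boxes for gene bodies and arrows for start sites. The highest point in every list is the peak of pooled rank 123, between the genes and outside the 2 kb limit of both.

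No peak was assigned to the other 4 genes. Su(z)12, which encodes a PRC2 subunit needed for the activity of E(z), had 1 pooled region, at rank 6845 (signal 74.8) with its summit 40 bp upstream of the TSS. In replicate 2 its best region ranked 4305, 65 bp downstream of the TSS, and in replicate 3 it ranked 11023, 38 bp upstream. The region was thus at the promoter in both replicates but below the threshold in each.

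Scm, which encodes a SAM domain protein that associates with PRC1, had a pooled region of rank 10742 with its summit 3 bp from the TSS and another of rank 20922 beyond the 3' end. Replicate 2 held both, at ranks 8994 and 12136, and replicate 3 held neither. The nearest peak to Scm lay 2534 bp beyond its 3' end, just outside the 2 kb limit, ranked 2550 and was 26 bp from a TSS of Calr, which encodes calreticulin.

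For pho, the gene of the DNA-binding Pho protein on chromosome 4, there was no pooled region, and only replicate 3 had a region, at rank 6443 and 334 bp upstream of the TSS. The nearest peak was 17756 bp away. Chromosome 4 held 19 peaks and 213 pooled regions in all, with 169 regions in replicate 2 and 292 in replicate 3. Sce, the shortest of the genes, had no region in any of the lists within 2 kb, and its nearest peak was 44258 bp from it. A missing region means that none stood among the 30000 listed, and not that binding was absent.

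Replicate ranks differed most at the peaks of Psc and Su(z)2. Each of the 10 peaks had a summit of both replicates within 100 bp, as did 96.1% of all peaks, and 7 of the 10 stood among the 3470 regions of highest signal in both replicates, against 71.1% of all peaks. Both counts are near the background. The 3 exceptions were those of Psc, Su(z)2 and the shared peak between ph-p and ph-d, which also had the weakest pooled signals of the set. Taken over all listed regions of the 10 genes, there were 34 in the pooled list, 32 in replicate 2 and 40 in replicate 3.

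**Figure D5:**
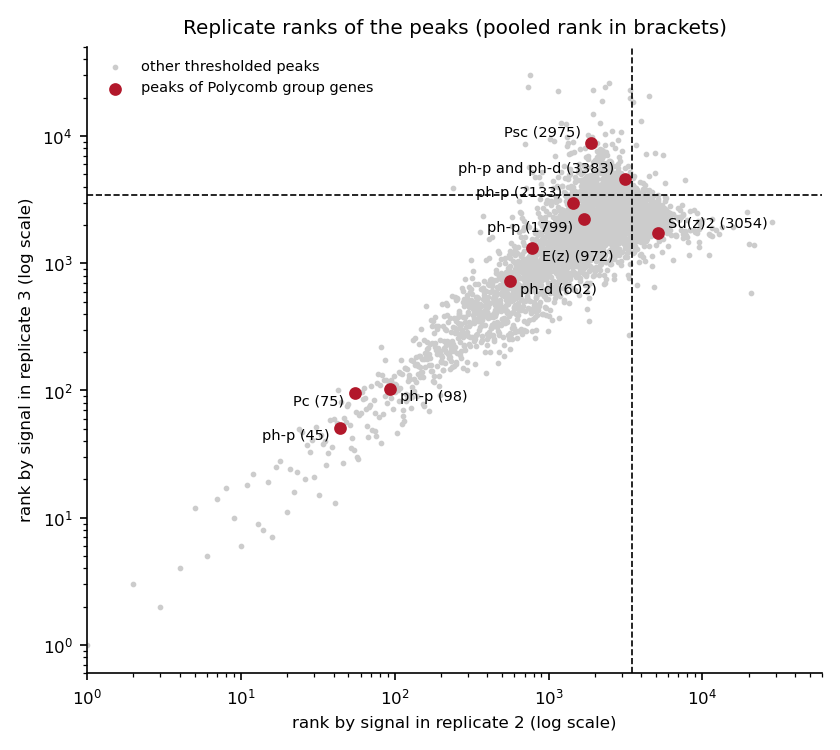
Rank by signal in replicate 2 (horizontal axis) against rank in replicate 3 (vertical axis), both on log scales, for peaks that have a replicate 2 and a replicate 3 summit no more than 100 bp away. Red points are the 10 peaks of the Polycomb group genes, labelled with gene and pooled rank, and dashed lines mark rank 3470: Psc and Su(z)2 lie on opposite sides, at 1900 and 8832 and at 5113 and 1721.

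The plus and minus strands were searched for motifs up to 100 bp to each side of the 10 summits. CACTGTGC, the word most enriched in an earlier search of all peaks of these data, was in none of the 10, against 9.91% of all peaks and 2.93% of pooled regions. Its core ACAGTG was in 1 of the 10, the ph-p peak of rank 98, against 26.5% and 13.5%. GAGAG, the site of GAGA factor, was in 2 of the 10, at Psc and Su(z)2, against 29.5% and 26.3%. At Su(z)2 it occurred 4 times, in part as overlapping copies. GCCAT was in 3 of the 10, at E(z), Psc and the ph-p peak of rank 1799, against 27.9% and 33.2%. The highest ph-p peak and the Pc peak held none of the motifs. The peaks of ranks 602, 2133 and 3383 at ph-p and ph-d also held none. With so few peaks these counts are descriptions, and no match says only that the letters are not in the window.

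Of 19 other Polycomb group genes and genes of factors that bind Polycomb response elements, 7 had a peak in the body or within 2 kb, beside the 22.9% of all genes given above. The highest belonged by this rule to Pcl, whose protein associates with PRC2, at rank 33 (46 in replicate 2 and 27 in replicate 3). Its summit lay 1864 bp beyond the 3' end of Pcl and within 500 bp of a TSS of pAbp, which encodes a poly(A)-binding protein. Pcl also had a promoter peak of rank 1163, 72 bp upstream of its TSS. The peak of Caf1-55, a histone chaperone in PRC2, ranked 60 and lay 1969 bp beyond the 3' end at the start sites of mRpS10 and Art3. That of phol, a gene related to pho, ranked 189 and lay 1525 bp upstream at the start sites of CG3437 and CG3552. As at Pc, these peaks were near the starts of neighbouring genes.

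Other peaks in the list had no TSS of another gene within 500 bp. Kdm2, which encodes a histone demethylase, had 3, at ranks 509, 544 and 2009, all in introns. Dsp1, which encodes an HMG-box protein, had 2, at ranks 434 and 2979. The peak of corto ranked 807, 1113 bp upstream of a TSS. The long gene jing, of 119787 bp, had 5 intronic peaks, the best of rank 399. A peak within 500 bp of an own TSS was found in 2 of the 19, Pcl and Kdm2, a share equal to the 10.5% of all genes. The 12 genes without a peak were esc, escl, Jarid2, Sfmbt, Asx, calypso (caly in the annotation), sxc, l(3)73Ah, Spps, cg, crol and mxc. Among them Spps, l(3)73Ah and crol came nearest to the threshold, with best pooled ranks of 3595, 3735 and 3744, and Jarid2, Sfmbt, Asx and mxc had no pooled region. Of these, mxc had none in the replicates either, and Asx had one in replicate 3, of rank 3209. Sfmbt had regions in both, with best ranks of 4735 in replicate 2 and 3924 in replicate 3. So did Jarid2, with best ranks of 5415 in replicate 2 and 28506 in replicate 3.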

How the data were processed

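ChIP-seq regions were deposited for replicate 2, replicate 3 and their pooled reads, called against a control, per the deposited file listing, with chromatin sheared to 200 to 800 bp and dm6 as the build, per the labels. Neither aligner nor caller is named in the labels or files, so both are not given in the sources used. The deposited signal is a score of undescribed unit and was used only for ranks and values within a list. The deposited −log10 q-value was equal for all 3470 thresholded peaks, which are also the pooled regions of highest signal. Other deposited columns give the summit position. Depth is unknown, since only region lists were used, and p-values were not computed.

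Genes and start sites are from Ensembl release 115, and sequence is from Release 6 of the RefSeq genome, in which all 10 members have the same start and end. No region passed a chromosome end. Assignment to genes was tested on simulated summits. The members and lists were chosen with earlier results of these data known. All 10 members are named, the others come from a list of 19 genes, and genes sharing a peak are named too. CACTGTGC was taken from an earlier search of these peaks. Alternatives were other distances, promoter windows, summit distances, sequence windows, a stricter threshold, any overlap of the region and each replicate alone. Python 3.11.15, numpy 2.4.6, pandas 2.3.3 and matplotlib 3.10.9 were used.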

Additional observations from a re-analysis of the deposited data

How the results depend on the processing

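The count of 6 genes with a peak was 4 within gene bodies, 5 within 1 kb and 7 within 5 kb. It was 4 with the 1735 highest peaks, 5 with either replicate alone and 6 by any overlap of the region. Over all genes the share was 22.9% within 2 kb and 8.56% within gene bodies. It was not counted under the other settings, so those counts have no background. The 10 peaks became 5 with the 1735 highest peaks, 9 to 10 with a replicate left out and 14 within 5 kb. The 34 pooled regions became 22 within gene bodies and 32 to 40 with a replicate left out. Motif counts moved with the window, and since a wider window contains the narrower one, its count cannot be lower. CACTGTGC was in 1 peak within 200 bp, that of ph-p at rank 98. ACAGTG was in 0 within 50 bp and 2 within 200 bp, GAGAG in 1 and 5, and GCCAT in 0 and 4. Shares over all peaks and pooled regions were counted for the 100 bp window only, so they are no background for these counts. Why the changes differed in size was not tested. Summits of both replicates lay within 50 bp for 8 of the 10 peaks. Genes with a peak within 500 bp of a TSS numbered 2 to 4 over the settings, and the 10.5% of all genes was counted for the main setting only. Ranks by region width moved for all 8 genes with a pooled region, to a tied rank of 127 for regions of the common width of 380 bp and to 29660 for the narrower E(z) region of 146 bp. For Pc, ph-p and ph-d the rank of 127 belongs to other regions than the strongest, which had 315, 329 and 199 bp. No paired analysis was possible because there is 1 group. Depth is unknown, so a weak rank and a low number of reads cannot be told apart.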
